A study of Mus musculus with 3 samples.

Results

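The genes described here are those that build the respiratory chain and the ATP synthase of mitochondria. They were chosen by name: symbols beginning with mt-Nd, mt-Cytb, mt-Co or mt-Atp, which lie in the mitochondrial genome, and symbols beginning with Ndufa, Ndufb, Ndufc, Ndufs, Ndufv, Uqcr, Cox4 to Cox8 or Atp5, which lie in the nucleus. Assembly factors with names beginning Ndufaf and pseudogenes were left out. The rule found 99 of the 34099 genes in the count tables, 13 mitochondrial and 86 nuclear. By enzyme, the mitochondrial genes comprise 7 of complex I, 1 of complex III, 3 of complex IV and 2 of complex V. The nuclear genes comprise 39 of complex I, 8 of complex III, 20 of complex IV and 19 of complex V, with Ndufa4 and its paralog Ndufa4l2 placed in complex IV.

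RNA was counted in single cells from the livers of 3 mice, with 1 library from 1 mouse in each group. Every mouse had received 500 mg/kg APAP (paracetamol), a drug that in overdose kills hepatocytes through a reactive metabolite that binds mitochondrial proteins. At 6 h the mice were given, by infusion, mesenchymal stromal cells (MSC) engineered with bispecific polyvalent peptides, native MSC, or PBS. The livers were taken after 4 days. No group without APAP was included, and strain, sex, age and the source of the MSC are not given in the sources used here. With 1 library a group no difference could be tested against the spread between mice: the intervals below are 95% intervals that cover counting error only, and no p-value is given.

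Complex I takes electrons from NADH, complex III passes them from ubiquinol to cytochrome c, and complex IV hands them to oxygen. The protons these enzymes pump drive complex V, the ATP synthase. Complexes I, III, IV and V are built from subunits of both genomes, and their mitochondrial genes encode core subunits at the catalytic or proton-carrying centre. Hepatocytes are rich in mitochondria, whereas mature neutrophils draw most of their energy from glycolysis.

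The libraries of engineered MSC, native MSC and PBS held 62564254, 84950721 and 82247448 UMIs (unique molecular identifiers, 1 per captured RNA molecule) in 11028, 11479 and 10739 barcodes. After limits on genes, UMIs, mitochondrial share and doublets, 9129, 9179 and 9537 barcodes remained, with medians of 3667, 5673 and 5783 UMIs. The limit of 20% of UMIs from mitochondrial genes applied to 852, 167 and 289 barcodes. Few barcode sequences occurred in more than 1 library: 46 in both MSC libraries, 44 in engineered MSC and PBS, and 39 in native MSC and PBS. Clustering without any of the 99 genes gave 34 clusters, of which 4 stayed unnamed and the others were named from marker genes as X-like; the unnamed ones held 13.7%, 18.4% and 0.210% of cells. The 8 classes with at least 100 cells in every library are compared, and their own markers were detected in each library, apart from 1 of 8 dendritic cell markers at 0 in the engineered MSC library. Different clusters held most of a class in different libraries: hepatocyte-like cells were 91.0% in cluster 6 in engineered MSC but 100% and 99.7% in cluster 8 in native MSC and PBS. B cell-like, T cell-like, monocyte-like, neutrophil-like and sinusoidal endothelium-like cells were divided in a similar way, while dendritic cell 2-like and stellate or fibroblast-like cells came from 1 cluster each. Clusters 9 (sinusoidal endothelium-like) and 15 (monocyte-like) had none of their own markers among their 10 leading genes.

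The mitochondrial and nuclear sets had opposite high points among the cell classes. Among the 8 classes, the mitochondrial set took the most UMIs in B cell-like and sinusoidal endothelium-like cells in every library, and the fewest in hepatocyte-like and neutrophil-like cells. The nuclear set took the most in hepatocyte-like cells and the fewest in neutrophil-like cells. In hepatocyte-like cells the 13 mitochondrial genes took 0.892% of UMIs in engineered MSC, 0.383% in native MSC and 0.252% in PBS, while the 86 nuclear genes took 4.40%, 3.84% and 3.62%. That gave 0.203, 0.0997 and 0.0698 mitochondrial UMIs per nuclear UMI. In B cell-like cells the mitochondrial set took 4.74%, 3.51% and 3.30% and the nuclear set 0.814%, 0.789% and 0.798%, or 5.82, 4.44 and 4.13 mitochondrial UMIs per nuclear UMI. UMIs count captured 3' ends and are not divided by gene length, so these ratios compare classes and libraries with each other and not one gene with another.

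Sinusoidal endothelium-like cells, which line the liver capillaries, had 4.61%, 3.25% and 3.54% of UMIs in the mitochondrial set and 0.868%, 1.01% and 1.02% in the nuclear set in engineered MSC, native MSC and PBS. T cell-like cells had 4.27%, 2.75% and 3.15% in the mitochondrial set and 1.10%, 1.32% and 0.914% in the nuclear set. Stellate or fibroblast-like cells, which make matrix, had 3.64%, 2.79% and 3.24% in the mitochondrial set and 1.15%, 1.27% and 1.09% in the nuclear set. Monocyte-like cells had 3.21%, 2.77% and 2.41% in the mitochondrial set and 1.290%, 1.309% and 1.2005% in the nuclear set. Dendritic cell 2-like cells had 2.86%, 2.38% and 2.21% in the mitochondrial set and 1.10%, 1.27% and 1.17% in the nuclear set. Neutrophil-like cells had 2.06%, 0.575% and 0.593% in the mitochondrial set and 0.715%, 0.672% and 0.530% in the nuclear set.

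**Figure D1:**
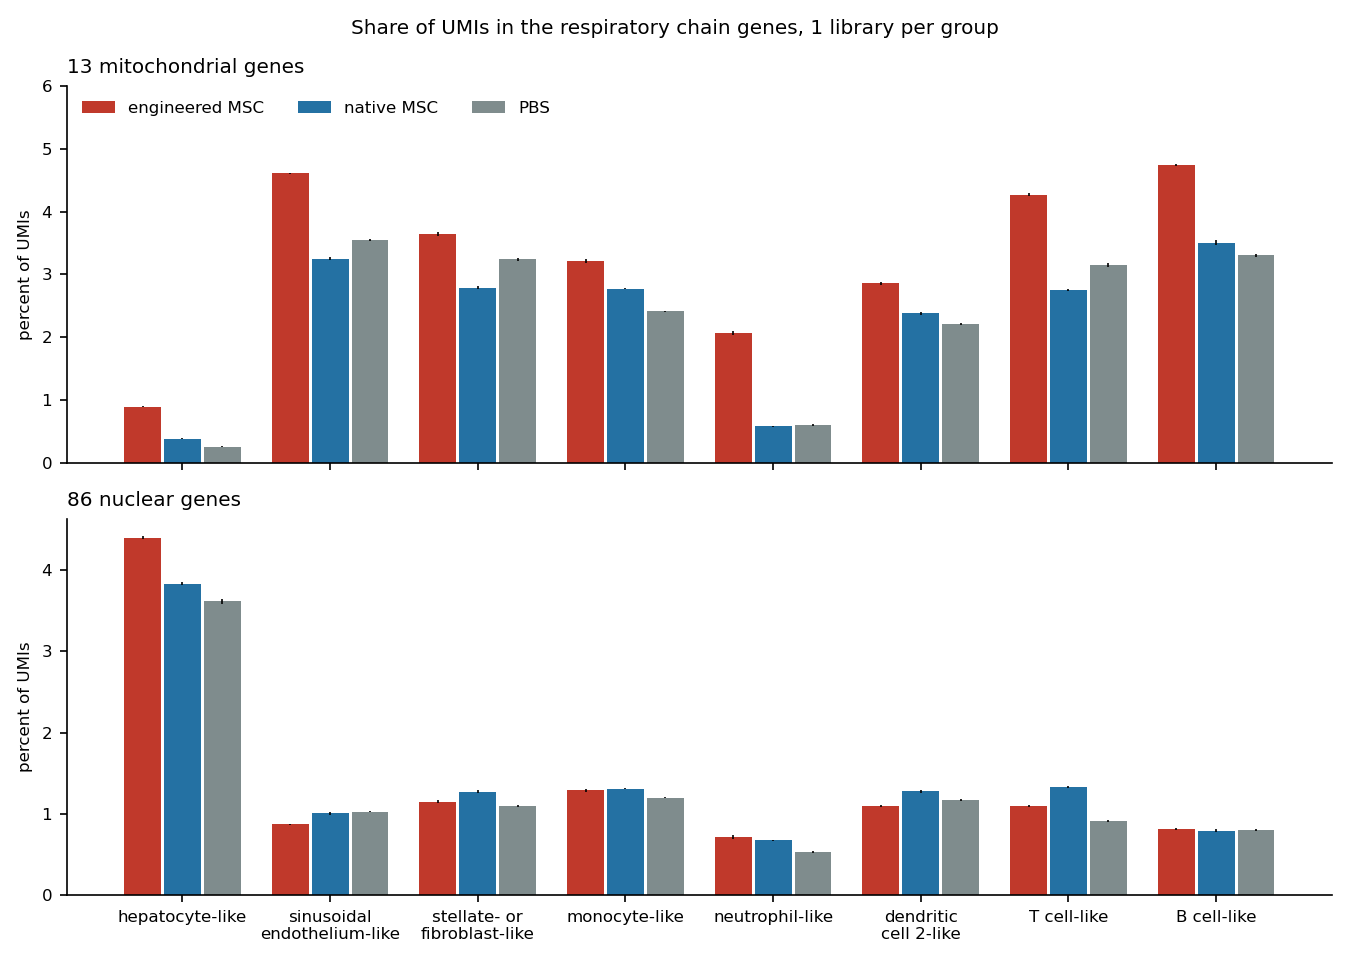
Percent of all UMIs of a class that fell in the 13 mitochondrial genes (upper panel) and the 86 nuclear genes (lower panel), in 8 marker-named classes and 3 libraries; error bars are 95% Poisson intervals. The engineered MSC bar is the highest of the mitochondrial panel in all 8 classes, and hepatocyte-like cells, at 3.62% to 4.40%, stand above every other class in the nuclear panel.

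Classes with fewer cells extended the range of the mitochondrial set. In Kupffer cell-like cells, macrophages that reside in the liver sinusoids, the set took 6.39% of UMIs in engineered MSC (271 cells) and 4.74% in PBS (686 cells), with 24 such cells in native MSC. Macrophage-like cells had 3.03% in native MSC (67 cells) and 3.26% in PBS (2066 cells). Cluster 3 also scored highest for the macrophage markers but stayed unnamed because it was close to another lineage. It held 482, 1468 and 13 cells of engineered MSC, native MSC and PBS. Its mitochondrial set took 3.80% in engineered MSC and 2.87% in native MSC. Plasmacytoid dendritic cell-like cells had 3.90%, 3.20% and 3.22% in engineered MSC, native MSC and PBS (100, 58 and 147 cells). The clusters differed by library here too: Kupffer cell-like cells lay 92.3% in cluster 22 in engineered MSC and 99.7% in cluster 16 in PBS, and plasmacytoid dendritic cell-like cells in cluster 31 in engineered MSC and cluster 26 in native MSC and PBS. Macrophage-like cells lay in cluster 1 alone. Erythroid-like cells, whose maturation removes mitochondria, had 1.51% in engineered MSC and 0.308% in native MSC, with 0.313% and 0.179% in the nuclear set (223 and 476 cells), and lay 99.6% in cluster 24 in engineered MSC and 89.5% in cluster 20 in native MSC.

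In engineered MSC against PBS, the mitochondrial set was higher in 8 of 8 classes. The median log2 ratio of its share of UMIs was 0.43, or 1.34-fold. The log2 ratios were 1.82 in hepatocyte-like, 1.80 in neutrophil-like, 0.52 in B cell-like, 0.44 in T cell-like, 0.41 in monocyte-like, 0.38 in sinusoidal endothelium-like, 0.37 in dendritic cell 2-like and 0.17 in stellate or fibroblast-like cells. The 2 largest ratios stood in the 2 classes where the mitochondrial share was lowest in PBS. Within the 1 cluster that held at least 50 cells of each library, a restriction chosen after the values were seen, the ratio was 1.22 in hepatocyte-like, 0.23 in sinusoidal endothelium-like and 0.23 in T cell-like cells.

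In most classes the share of mitochondrial UMIs in single barcodes had a main peak above 1% and a low hump or tail below it, and the libraries differed in how many barcodes lay below. In the 6 classes other than hepatocyte-like and neutrophil-like cells, barcodes with under 1% of UMIs in the mitochondrial set were 113 of 4316 (2.62%) in engineered MSC, 570 of 3554 (16.0%) in native MSC and 1395 of 5400 (25.8%) in PBS. By class the share ran over 1.02% to 9.35% in engineered MSC, 13.9% to 21.3% in native MSC and 21.9% to 32.5% in PBS. These ranges of point values lay apart, but classes of 1 library are not replicates, and counting intervals overlapped. In sinusoidal endothelium-like cells the intervals were 14.42% to 29.65% in native MSC and 19.51% to 24.41% in PBS. Hepatocyte-like and neutrophil-like cells, left out here, had a higher share in native MSC than in PBS. Barcodes within 0.8% to 1.25% numbered 75, 146 and 210. Among barcodes with at least 1%, a limit chosen after the values were seen and on the measured value itself, the median log2 ratio of the mitochondrial set between engineered MSC and PBS was 0.13 in place of 0.43. It was 0.72 in neutrophil-like, 0.27 in B cell-like, 0.18 in T cell-like, 0.13 in monocyte-like, 0.13 in sinusoidal endothelium-like, 0.11 in hepatocyte-like, 0.09 in dendritic cell 2-like and 0.01 in stellate or fibroblast-like cells.

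Barcodes below and above the 1% limit differed in more than the 13 genes, though not alike in every class. In PBS monocyte-like cells, the 675 barcodes under 1% had a nuclear set share of 1.51%, against 1.11% in the 1897 others. They had 3214 CPM (the share of UMIs on a parts-per-million scale) of Malat1, a long RNA kept in the nucleus, against 6818 CPM. Their cytosolic ribosomal protein genes took 11.4%, against 8.996%, and their median was 5207 UMIs, against 6708. B cell-like barcodes of PBS divided in the same direction, with 1.15% against 0.715% in the nuclear set, 6540 against 11000 CPM of Malat1 and medians of 1496 against 2374 UMIs. Native MSC showed this direction too: the 336 monocyte-like barcodes under 1% had 1.56% in the nuclear set, against 1.28%, and 3077 CPM of Malat1, against 6621 CPM. The Malat1 difference was smaller in PBS macrophage-like cells, 6984 against 7637 CPM, and Kupffer cell-like cells, 7453 against 8405 CPM. In native MSC neutrophil-like cells the direction was the other way. The 2158 barcodes under 1% had 0.659% in the nuclear set, against 0.765%, and 15890 CPM of Malat1, against 15690 CPM. Hepatocyte-like cells lay mostly under the limit, with 61.8%, 95.5% and 89.0% of barcodes in engineered MSC, native MSC and PBS, and a median mitochondrial share per barcode of 0.603%, 0.084% and 0.176%. Neutrophil-like cells had 43.7%, 88.3% and 83.3% under it.

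**Figure D2:**
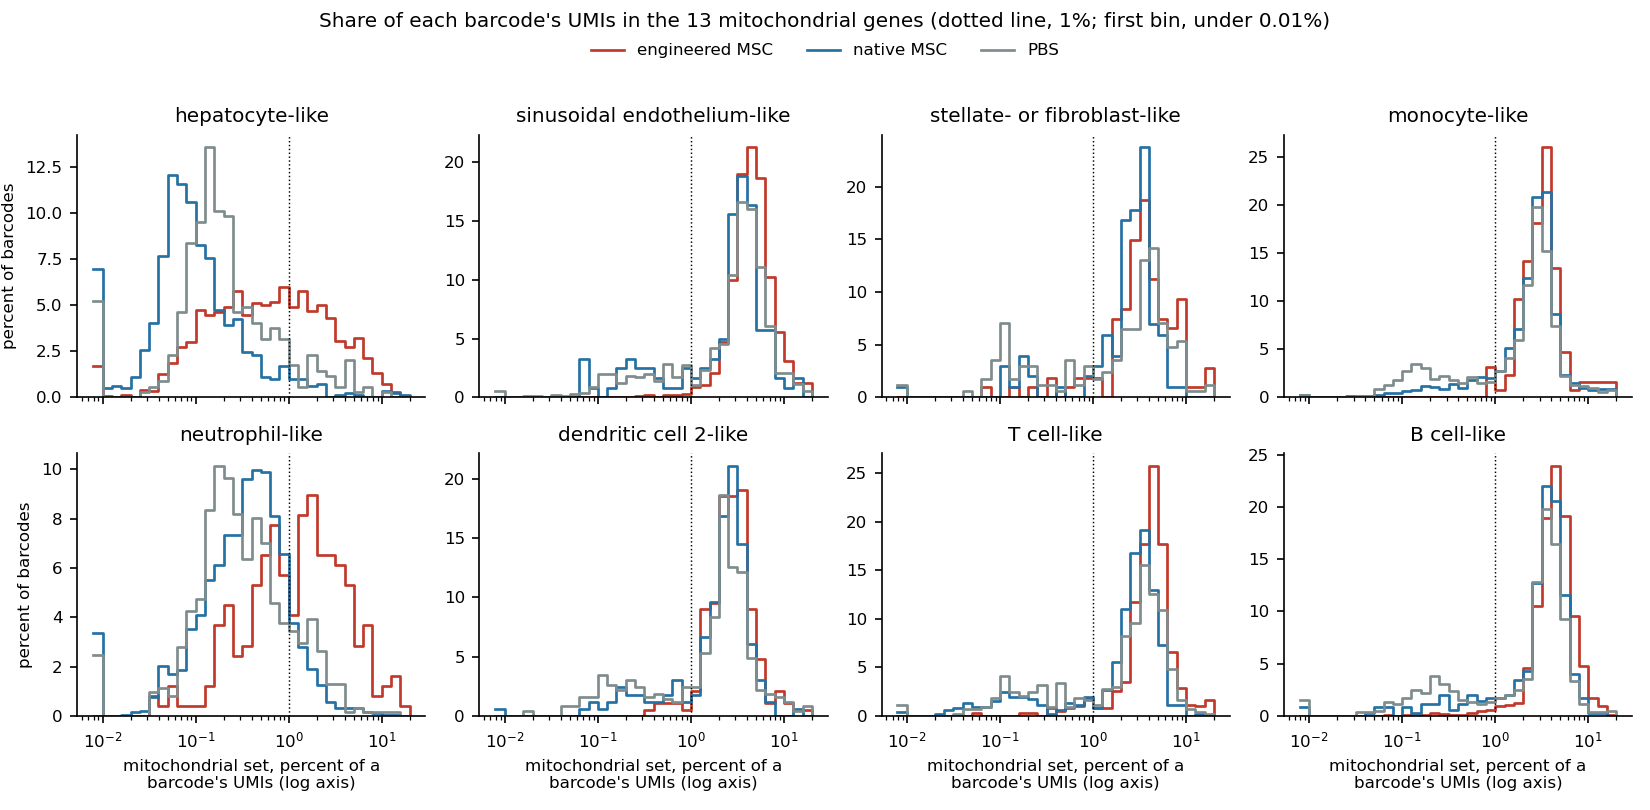
Distribution of the mitochondrial set's share of UMIs over the barcodes of each class, as percent of the class's barcodes in each of 34 bins on a log axis, with 1 line per library and a dotted line at 1%. In the 6 classes other than hepatocyte-like and neutrophil-like cells, the low hump or tail below 1% holds 2.62%, 16.0% and 25.8% of barcodes in engineered MSC, native MSC and PBS.

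In native MSC against PBS the mitochondrial set showed no common direction. It was higher in 4 classes and lower in 4, with a median log2 ratio of 0.02. The log2 ratios were 0.60 in hepatocyte-like, 0.20 in monocyte-like, 0.11 in dendritic cell 2-like, 0.09 in B cell-like, -0.04 in neutrophil-like, -0.12 in sinusoidal endothelium-like, -0.19 in T cell-like and -0.22 in stellate or fibroblast-like cells. The hepatocyte-like ratio changed sign with the processing: it was -0.8547 when each cell counted alike and -0.9994 when barcodes above 10% mitochondrial UMIs were left out. In native MSC the 37 of 820 hepatocyte-like barcodes with at least 1% carried 7.44% of their UMIs in the mitochondrial set, and the 783 others 0.113%. Engineered against native MSC gave a higher mitochondrial set in 8 of 8 classes with a median log2 ratio of 0.47. Among barcodes with at least 1% the median was 0.26, and hepatocyte-like cells turned to -1.28, in place of 1.22.

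In engineered MSC against PBS the nuclear set had a smaller median ratio than the mitochondrial set. It was higher in 6 classes and lower in 2, with a median log2 ratio of 0.09. Its log2 ratios were 0.43 in neutrophil-like, 0.28 in hepatocyte-like, 0.27 in T cell-like, 0.10 in monocyte-like, 0.07 in stellate or fibroblast-like, 0.03 in B cell-like (interval -0.00 to 0.06), -0.10 in dendritic cell 2-like and -0.24 in sinusoidal endothelium-like cells. In native MSC against PBS it was also higher in 6 classes and lower in 2, with a median of 0.12, against 0.02 for the mitochondrial set. There the ratios were 0.54 in T cell-like, 0.34 in neutrophil-like, 0.22 in stellate or fibroblast-like, 0.13 in monocyte-like, 0.12 in dendritic cell 2-like, 0.09 in hepatocyte-like, -0.02 in B cell-like and -0.03 in sinusoidal endothelium-like cells. Engineered against native MSC gave a median of -0.08, with 3 classes higher and 5 lower. Both comparisons with PBS share the PBS library. The 2 sets differed in sign in several class and library pairs: in T cell-like cells native MSC had a lower mitochondrial set (-0.19) and a higher nuclear set (0.54), and in sinusoidal endothelium-like cells engineered MSC had a higher mitochondrial set (0.38) and a lower nuclear set (-0.24).

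The share of UMIs from hepatocyte genes in cells of other classes differed between the libraries as well. The 18 secreted-protein and other hepatocyte genes followed here took 1.17%, 0.301% and 0.0760% of UMIs in B cell-like cells of engineered MSC, native MSC and PBS. In sinusoidal endothelium-like cells they took 0.469%, 0.0953% and 0.0385%, and in neutrophil-like cells 1.28%, 0.262% and 0.0990%. All 18 were at least 1.5-fold higher in engineered MSC than in PBS in each of the 7 classes other than hepatocyte-like cells, with median log2 ratios of 2.99 to 3.87. In hepatocyte-like cells they took 6.54%, 5.92% and 3.46%. The origin of this RNA in other classes, such as RNA shed into the suspension, and its part in the ratios of either set were not tested.

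The 13 mitochondrial mRNAs lie close together on a circular genome and are cut from long precursors transcribed from each strand. In the GENCODE M21 annotation of GRCm38, mt-Nd6 is the 1 gene of the 13 on the minus strand of chromosome M. Of the others, 3 neighbouring pairs overlap on the plus strand: mt-Atp8 and mt-Atp6 share 43 bases, mt-Nd4l and mt-Nd4 share 7, and mt-Atp6 and mt-Co3 share 1. mt-Nd5 and mt-Nd6 share 14 bases on opposite strands. The longest overlap is shown because counts of mt-Atp8 and mt-Atp6 come from 1 shared mRNA, so the share assigned to each depends on where a read falls. Capitals mark the start codon of mt-Atp6 within the end of mt-Atp8, chrM:7927-7969, plus strand:
mt-Atp8 and mt-Atp6 overlap: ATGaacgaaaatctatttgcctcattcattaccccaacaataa

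The ratio differed among the mitochondrial genes. In native MSC against PBS, the log2 ratio of complex I transcripts was below that of complex IV transcripts in several classes. In sinusoidal endothelium-like cells the summed complex I transcripts had a log2 ratio of -0.72 and the complex IV transcripts 0.17. The corresponding values were -0.56 and 0.19 in neutrophil-like, -0.52 and -0.08 in stellate or fibroblast-like, and -0.09 and 0.29 in monocyte-like cells. T cell-like cells gave -0.23 and -0.17, B cell-like cells -0.06 and 0.13, dendritic cell 2-like cells 0.08 and 0.09, and hepatocyte-like cells 0.57 and 0.57. In engineered MSC against PBS the same 2 sums gave 0.10 and 0.56 in sinusoidal endothelium-like cells and -0.19 and 0.35 in stellate or fibroblast-like cells. The order was the other way in B cell-like cells, 0.66 and 0.43, and T cell-like cells, 0.53 and 0.38.

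mt-Nd1, mt-Nd2, mt-Nd3 and mt-Nd4, core subunits of the membrane arm of complex I, were each lower in native MSC than in PBS in at least 6 of 8 classes. In sinusoidal endothelium-like cells mt-Nd1 stood at 3445 CPM in engineered MSC, 2324 CPM in native MSC and 3915 CPM in PBS. mt-Nd2 stood at 2265, 1023 and 2030 CPM in the same order, and mt-Nd3 at 398, 202 and 456 CPM. Native MSC was the lowest of the 3 libraries for each of these genes, with log2 ratios to PBS of -0.75 for mt-Nd1, -0.99 for mt-Nd2 and -1.17 for mt-Nd3. mt-Nd4 had a ratio of -0.53 there and a median of -0.23 over the 8 classes, with 6 of 8 below 0. mt-Co3, a core subunit of complex IV, stood at 9404 CPM in engineered MSC, 7310 CPM in native MSC and 6066 CPM in PBS, and mt-Co1, which holds the oxygen-binding site, at 5494, 3972 and 3543 CPM. PBS was the lowest library for both. In stellate or fibroblast-like cells mt-Nd1 stood at 2538 CPM in engineered MSC and 2367 CPM in native MSC, against 3522 CPM in PBS.

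mt-Cytb, the cytochrome b of complex III, was higher in engineered MSC than in PBS in 8 classes, from 0.21 in stellate or fibroblast-like to 2.18 in hepatocyte-like cells. mt-Atp6, which forms part of the proton channel of ATP synthase, was higher in 8 classes, from 0.15 to 1.82. mt-Co2, the subunit that receives electrons from cytochrome c, ranged from 0.22 to 1.84. mt-Nd4 ranged from 0.12 to 1.98, and mt-Nd5 from 0.16 to 1.90. mt-Nd4l and mt-Atp8 rested on few UMIs: in neutrophil-like cells mt-Nd4l had 27, 24 and 15 UMIs in engineered MSC, native MSC and PBS. mt-Nd6 stood at 12.9, 3.03 and 8.94 CPM in hepatocyte-like cells, from 88, 20 and 13 UMIs, and its log2 ratio of -1.56 in native MSC ran against the other mitochondrial genes of that class. In neutrophil-like cells mt-Nd2 had the largest ratio in engineered MSC, 2.28, with 1303 CPM against 269 CPM in PBS.

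**Figure D3:**
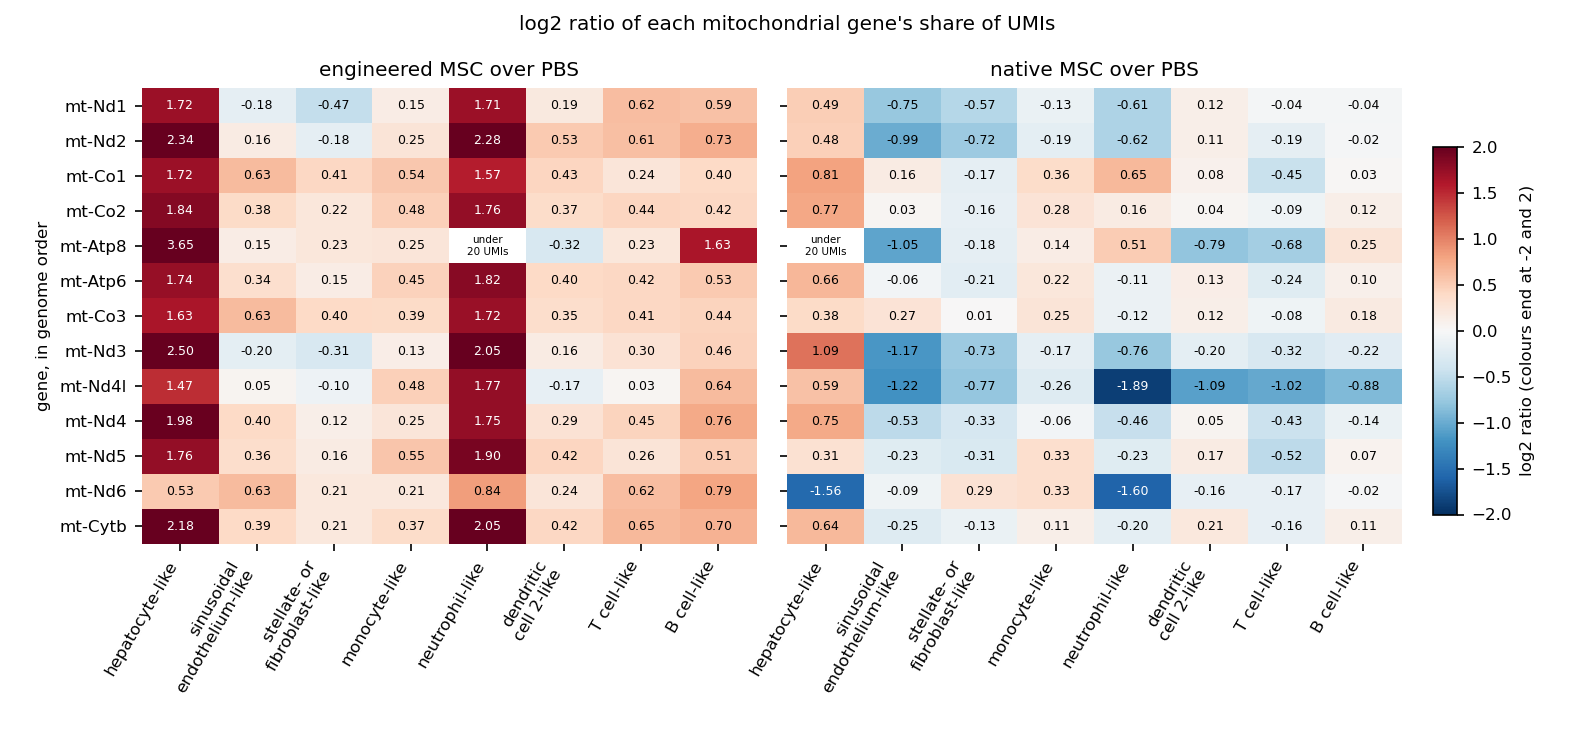
log2 ratios of CPM for the 13 mitochondrial genes (rows, in genome order) in 8 classes (columns), engineered MSC over PBS on the left and native MSC over PBS on the right; fields with fewer than 20 UMIs in the pair are empty. In native MSC the rows mt-Nd1, mt-Nd2 and mt-Nd3 reach -0.75, -0.99 and -1.17 in sinusoidal endothelium-like cells while mt-Co3 stands at 0.27.

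Counts past 1.5-fold are given for each class beside the share of all genes with at least 20 UMIs in the pair that passed the same fold. In hepatocyte-like cells of engineered MSC against PBS, 12 of 13 mitochondrial genes and 5 of 78 nuclear genes were higher, where 21.7% of all genes were, and 1 nuclear gene was lower, where 25.3% were. Most nuclear genes were above PBS by a small amount: 68 of 78 had a ratio above 0, with a median log2 ratio of 0.29, against -0.09 over all genes. Cox6c, Ndufc2 and Ndufa4 were furthest above PBS, at 0.63, 0.61 and 0.58, and Atp5mc2, Atp5mc1 and Ndufs7 furthest below, at -1.49, -0.14 and -0.11. The ratio interval of Ndufs7, 0.838 to 1.02, includes no difference. Ndufa4 stood at 2451 CPM in engineered MSC, 1816 CPM in native MSC and 1644 CPM in PBS. In native MSC 7 of 12 mitochondrial and 2 of 78 nuclear genes were higher, where 15.1% of all genes were, and 1 of each set was lower, where 27.8% were. The median over the nuclear genes was 0.09, against -0.23 over all genes. Ndufc2, Atp5f1b and Uqcrc2 led, at 0.50, 0.50 and 0.43, and Atp5mc2, Ndufs7 and Ndufa3 trailed, at -0.75, -0.47 and -0.44.

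Sinusoidal endothelium-like cells were the 1 class of the 8 in which the nuclear genes were mostly lower in both MSC groups. In engineered MSC 3 of 13 mitochondrial and 2 of 77 nuclear genes were higher, where 20.3% of all genes were, and 10 nuclear genes were lower, where 19.2% were. Of the 77, 59 had a ratio below 0, and the median was -0.27, against 0.01 over all genes. ATP synthase genes made up 6 of the 10 and 19 of the 77, so 6 of 19 were lower, where 19.2% of all genes were. The summed nuclear complex V transcripts had a log2 ratio of -0.48, against -0.17 for complex I and -0.09 for complex IV. Atp5mc1, which encodes the ring-forming c subunit, stood at 80.2 CPM in engineered MSC and 131 CPM in native MSC, against 211 CPM in PBS. Atp5pb, a subunit of the peripheral stalk, stood at 156 CPM in engineered MSC against 300.2 CPM in PBS. The members furthest below PBS were Atp5mc1, Atp5mc2 and Atp5pb, at -1.39, -1.22 and -0.95, and those furthest above were Cox7a2l, Atp5po and Ndufb4, at 1.19, 1.15 and 0.32. In native MSC no mitochondrial and 4 of 76 nuclear genes were higher, where 15.5% of all genes were, and 5 mitochondrial and 15 nuclear genes were lower, where 16% were. Cox7a2l, Atp5po and Ndufv1 led, at 1.66, 1.56 and 0.70, and Ndufa3, Atp5mk and Ndufa2 trailed, at -1.39, -0.94 and -0.93. Atp5po here is the smaller of 2 rows with this symbol, with 251, 38 and 72 UMIs in engineered MSC, native MSC and PBS. Over all kept cells this row stood at 12.7, 11.9 and 19.8 CPM in that order. The larger row, Atp5po_2, ran the other way, at 244, 254 and 157 CPM, so these 2 ratios may not describe the gene.

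In stellate or fibroblast-like cells of engineered MSC no mitochondrial and 7 of 79 nuclear genes were higher, where 18.5% of all genes were, and 3 nuclear genes were lower, where 20.1% were. Ndufa4l2, Cox7a2l and Uqcrh led, at 2.99, 1.15 and 0.77, and Atp5mc1, Ndufa12 and Ndufab1 trailed, at -0.83, -0.60 and -0.56. In native MSC no mitochondrial and 8 nuclear genes were higher, where 18.5% were, and 3 mitochondrial and 1 nuclear gene were lower, where 20% were. Ndufa4l2, Cox7a2l and Atp5po_2 led, at 2.70, 1.18 and 0.85, and Ndufa12, Ndufab1 and Atp5mk trailed, at -0.58, -0.39 and -0.32. The ratio interval of Atp5mk, 0.578 to 1.11, includes no difference. Atp5po_2 and Atp5po are 2 rows of the tables with the symbol Atp5po, the stalk subunit that carries oligomycin sensitivity. The row Atp5po_2, ENSMUSG00000022956, held 41160 UMIs in kept cells, and the row Atp5po, ENSMUSG00000116933, held 2888, so reads of 1 gene may be divided between them. Ndufb4 with 6070 UMIs and its copy Ndufb4b with 254 are uncertain for the same reason.

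Monocyte-like cells, blood-derived phagocytes, included cluster 15, whose 10 leading genes held 6 skeletal muscle genes (Acta1, Tnnc2, Tnnt3, Mylpf, Ckm and Myl1) and no monocyte marker. It supplied 6.30% of the class in engineered MSC (8 cells), 7.95% in native MSC (183 cells) and 20.96% in PBS (539 cells). In cluster 15 the 6 muscle genes summed to 0, 1439 and 136 CPM in engineered MSC, native MSC and PBS, and their part in the ratios was not tested. In engineered MSC no mitochondrial and 1 of 79 nuclear genes were higher, where 9.82% of all genes were, and 2 nuclear genes were lower, where 25.7% were. Cox7a2l, Ndufb11 and Uqcrh led, at 0.74, 0.46 and 0.41, and Atp5po, Cox6b2 and Ndufs7 trailed, at -1.84, -1.11 and -0.51. The 2 lower calls, Atp5po and Cox6b2, rested on 2 and 3 UMIs in engineered MSC, with ratio intervals of 0.0333 to 1.03 and 0.0936 to 1.39 that include no difference. In native MSC no mitochondrial and 1 nuclear gene were higher, where 7.92% were, and 1 nuclear gene was lower, where 18.9% were. Cox7a2l, Ndufs8 and Ndufb11 led, at 1.02, 0.53 and 0.51, and Atp5mc2, Ndufab1 and Ndufa12 trailed, at -0.43, -0.42 and -0.40. The median over the nuclear genes was 0.00 in engineered MSC, against -0.19 over all genes, and -0.02 in native MSC, against -0.18. Without cluster 15, an alternative chosen after the values were seen, 3 of 13 mitochondrial genes were past the fold in engineered MSC in place of none, where 9.81% of all genes were higher. The set ratios to PBS were then 0.44 mitochondrial and 0.12 nuclear in engineered MSC, and 0.22 and 0.15 in native MSC.

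Neutrophil-like cells had more nuclear genes past the fold than any other class in engineered MSC. There 12 of 12 mitochondrial and 26 of 74 nuclear genes were higher, where 17.2% of all genes were, and none of either set was lower, where 16.6% were. The median over the nuclear genes was 0.43, against -0.01 over all genes. Ndufb3, an accessory subunit of complex I, led at 1.73, followed by Uqcrfs1, the Rieske iron-sulphur protein of complex III, at 1.29 and Uqcrb at 1.24. Ndufb6, Ndufs8 and Ndufs7 trailed, at -0.39, -0.28 and -0.27. Their ratio intervals, 0.448 to 1.26, 0.460 to 1.42 and 0.553 to 1.22, include no difference. In native MSC 1 of 13 mitochondrial and 17 of 76 nuclear genes were higher, where 23.2% were, and 5 mitochondrial and 1 nuclear gene were lower, where 17.3% were. Ndufv3, Ndufb3 and Ndufb11 led, at 1.2995, 1.19 and 1.18, and Uqcr11, Atp5mk and Uqcrc1 trailed, at -0.32, -0.29 and -0.25. The ratio intervals of Uqcr11, Atp5mk and Uqcrc1, 0.621 to 1.04, 0.665 to 1.02 and 0.615 to 1.16, include no difference. Engineered MSC had 245 such cells, of which 50.6% lay in cluster 30, a cluster with 1 PBS cell.

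In dendritic cell 2-like cells of engineered MSC no gene of either set was higher, where 14.9% of all genes were, and 1 of 76 nuclear genes was lower, where 12.9% were. Cox7a2l, Ndufa6 and Atp5if1 led, at 0.51, 0.37 and 0.33, and Ndufa11, Cox5a and Ndufb2 trailed, at -0.64, -0.57 and -0.56. In native MSC 1 nuclear gene was higher, where 8.13% of all genes were, and 2 mitochondrial genes were lower, where 13.9% were. Ndufv1, which binds NADH in complex I, led at 0.60, with Cox7a2l at 0.53 and Ndufa9 at 0.51, and Cox6a1, Atp5mc2 and Ndufc1 trailed, at -0.46, -0.41 and -0.40. The ratio intervals of Atp5mc2 and Ndufc1, 0.380 to 1.41 and 0.562 to 1.01, include no difference.

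T cell-like cells of native MSC had the most nuclear genes past the fold of any class. There 32 of 76 nuclear genes were higher, where 18.4% of all genes were, and 2 mitochondrial and 1 nuclear gene were lower, where 22.9% were. A ratio above 0 was found for 71 of the 76 nuclear genes, with a median of 0.52, against -0.11 over all genes, while all 13 mitochondrial genes had a ratio below 0. The summed nuclear complex V transcripts had a log2 ratio of 0.69 and complex I 0.47. Atp5po_2 stood at 233 CPM in native MSC against 103 CPM in PBS, and Atp5mc1 at 226 CPM against 113 CPM. Atp5po_2, Ndufv1 and Atp5mc1 led, at 1.17, 1.00 and 1.00, and Atp5mc2, Cox7a2l and Uqcrh trailed, at -0.60, -0.21 and -0.10. In engineered MSC 4 of 13 mitochondrial and 7 of 75 nuclear genes were higher, where 15% were, and 1 nuclear gene was lower, where 13.5% were. Ndufb4, Ndufa5 and Atp5po_2 led, at 1.05, 0.68 and 0.67, and Atp5mc2, Ndufs7 and Ndufa7 trailed, at -0.62, -0.14 and -0.10. Atp5mc2 had 34, 36 and 23 UMIs in engineered MSC, native MSC and PBS, and the intervals of both its ratios to PBS, 0.373 to 1.16 and 0.380 to 1.16, include no difference. Those of Ndufs7 and Ndufa7 in engineered MSC and of Uqcrh in native MSC also include it. The 10 genes that mark dividing cells summed to 2794 CPM in engineered MSC and 2370 CPM in native MSC, against 348 CPM in PBS, in T cell-like cells, and their part was not tested. In T cell-like cells, 17.8% of the engineered MSC cells lay in cluster 11, which held all T cell-like cells of native MSC and PBS. Within that cluster the nuclear set had log2 ratios to PBS of 0.63 in engineered MSC and 0.54 in native MSC. Its leading genes included Gzma and Nkg7, markers on the list for natural killer cells or type 1 innate lymphoid cells. The class named from that list held 732, 3 and 0 cells of engineered MSC, native MSC and PBS. The other 82.2% of the engineered MSC T cell-like cells lay in cluster 19, led by Lef1 and Tcf7. The part of this cell makeup in the ratios was not tested.

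B cell-like cells differed from PBS in the mitochondrial set more than in the nuclear one. In engineered MSC 7 of 13 mitochondrial and 1 of 76 nuclear genes were higher, where 13.4% of all genes were, and none was lower, where 9.99% were. Atp5po, Ndufa9 and Uqcrq led, at 1.19, 0.57 and 0.56, and Ndufa12, Uqcrc1 and Ndufs8 trailed, at -0.56, -0.36 and -0.32. Atp5po rested on 46 UMIs in engineered MSC and 6 in PBS, and the interval of its ratio, 0.973 to 6.54, includes no difference. That of Ndufs8, 0.630 to 1.03, also includes it. In native MSC 1 of 75 nuclear genes was higher, where 7.06% were, and 1 mitochondrial and 2 nuclear genes were lower, where 13.5% were. Ndufa9, Cox7a2l and Ndufa2 led, at 0.56, 0.50 and 0.44, and Uqcr11, Ndufa12 and Ndufa5 trailed, at -0.68, -0.59 and -0.54. The ratio intervals of Ndufa9 and Ndufa5, 0.877 to 2.47 and 0.377 to 1.21, include no difference. The nuclear median was 0.04 in engineered MSC and -0.03 in native MSC.

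**Figure D4:**
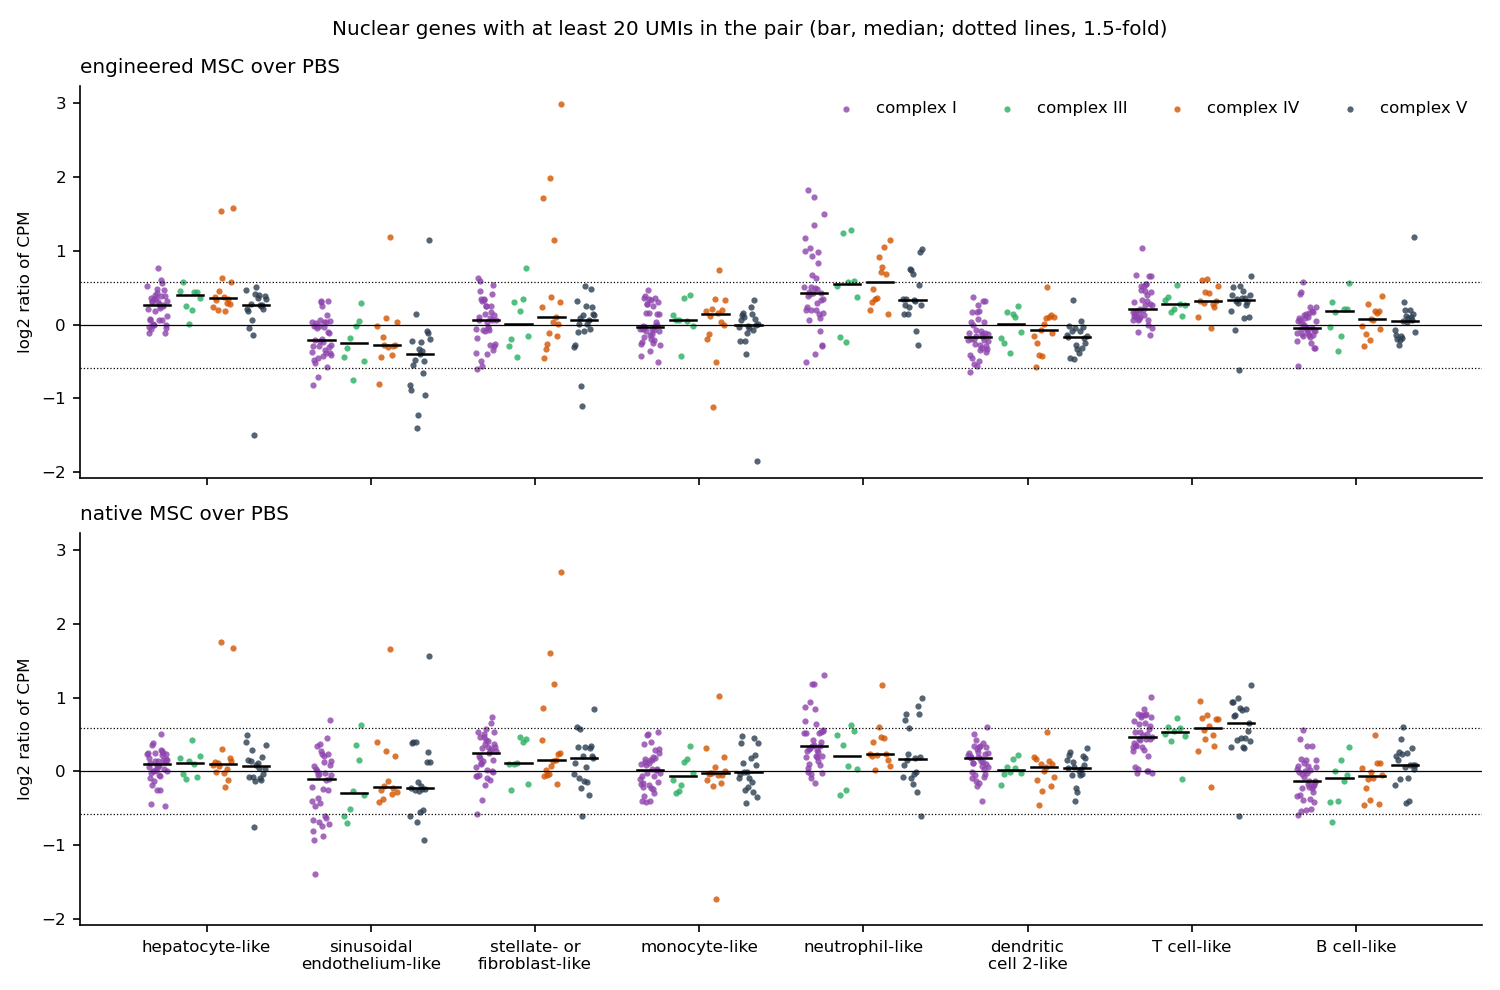
log2 ratios of CPM for nuclear genes with at least 20 UMIs in the pair, 1 point per gene, by class and complex, engineered MSC over PBS above and native MSC over PBS below; short bars are medians and dotted lines mark 1.5-fold. Most points lie within the dotted lines, with 26 of 74 above them in neutrophil-like cells of engineered MSC and 32 of 76 in T cell-like cells of native MSC.

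Cox7a2l was at least 1.5-fold higher than in PBS in more classes than any other nuclear gene, in each MSC group. Its protein, also called SCAF1, binds complex III and helps join it to complex IV in supercomplexes. In sinusoidal endothelium-like cells Cox7a2l stood at 360 CPM in engineered MSC, 499 CPM in native MSC and 158 CPM in PBS. In monocyte-like cells it stood at 404, 492 and 243 CPM, in stellate or fibroblast-like cells at 307, 315 and 139 CPM, and in neutrophil-like cells at 140, 183 and 81.6 CPM. PBS was the lowest library in each of these classes, and also in dendritic cell 2-like cells (377, 383 and 265 CPM) and B cell-like cells (278, 346 and 245 CPM). In T cell-like cells the levels were 373, 332 and 385 CPM, and in hepatocyte-like cells 432, 330 and 382 CPM. Against PBS it was past 1.5-fold in 4 of 8 classes in each MSC group (sinusoidal endothelium-like, stellate or fibroblast-like, monocyte-like and neutrophil-like), and above PBS in 7 of 8 classes in engineered MSC and 6 of 8 in native MSC. Its paralog Cox7a2 was past the fold in none of these 4 classes except neutrophil-like cells of engineered MSC, with 158 CPM against 96.6 CPM in PBS.

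Ndufa4, Uqcrh, Cox6c, Ndufb11 and Uqcrfs1 were above PBS in 8 of 8 classes in engineered MSC, mostly by less than 1.5-fold, with median log2 ratios of 0.36, 0.35, 0.36, 0.38 and 0.25. Ndufs7, an iron-sulphur subunit of complex I, was below PBS in 8 of 8 classes, with a median of -0.31. Its intervals in hepatocyte-like, T cell-like and neutrophil-like cells include no difference. In native MSC Atp5f1c, Atp5pf, Atp5po_2, Cox4i1, Cox8a and Uqcrc2 were above PBS in 8 of 8 classes, with medians of 0.38, 0.19, 0.37, 0.26, 0.19 and 0.26. Ndufb11b, a copy of Ndufb11, had no UMI in kept cells. Atp5mc2, a second gene for the c subunit, was below PBS in 6 of the 7 classes where it had 20 UMIs in the pair, in each MSC group, from low counts: 55, 89 and 33 UMIs in hepatocyte-like cells of engineered MSC, native MSC and PBS, or 8.06, 13.5 and 22.7 CPM.

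Promoters are shown for Cox7a2l, Atp5mc1 and Atp5mc2, whose ratios stood out in several classes, a choice made after the values were seen. The sequences are RefSeq windows on GRCm38.p6 that run from 250 bases before a gene's start to 50 after it, 5' to 3' on the gene's strand. RefSeq names matched 85 of the 86 nuclear genes, and 70 had a window. Letters were searched on both strands for GCGCATGCG, a core of the site of the activator NRF1, CCGGAAG, a core of ETS factor sites, AAGATGGCG, a core of the YY1 site, and ACGTG, the core of the hypoxia response element. Capitals mark a match, and overlapping matches run together. Cox7a2l is chr17:83514284-83514583, minus strand, with no match. Atp5mc1, RefSeq symbol Atp5g1, is chr11:96075582-96075881, minus strand, with ACGTG at 3 places. Atp5mc2, RefSeq symbol Atp5g2, is chr15:102670998-102671297, minus strand, with ACGTG at 1 place and the NRF1 core at 2 overlapping places.
Cox7a2l: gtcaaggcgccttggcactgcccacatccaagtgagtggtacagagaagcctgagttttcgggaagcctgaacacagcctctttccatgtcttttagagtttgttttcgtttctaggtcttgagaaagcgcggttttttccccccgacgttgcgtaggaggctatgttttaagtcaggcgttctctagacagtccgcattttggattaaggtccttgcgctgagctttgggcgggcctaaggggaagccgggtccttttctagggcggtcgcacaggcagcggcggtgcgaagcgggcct
Atp5mc1: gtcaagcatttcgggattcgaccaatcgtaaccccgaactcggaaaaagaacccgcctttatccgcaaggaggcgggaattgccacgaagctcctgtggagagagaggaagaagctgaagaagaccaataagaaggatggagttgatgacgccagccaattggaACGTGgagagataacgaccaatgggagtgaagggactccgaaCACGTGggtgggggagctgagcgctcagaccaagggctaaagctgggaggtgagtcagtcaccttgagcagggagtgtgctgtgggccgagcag
Atp5mc2: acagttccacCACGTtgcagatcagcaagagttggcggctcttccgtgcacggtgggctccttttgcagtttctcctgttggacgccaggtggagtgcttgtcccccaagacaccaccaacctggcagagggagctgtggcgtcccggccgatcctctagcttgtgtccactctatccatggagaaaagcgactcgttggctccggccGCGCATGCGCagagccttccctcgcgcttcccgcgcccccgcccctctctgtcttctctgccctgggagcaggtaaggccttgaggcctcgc

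Over the nuclear genes, the NRF1 core was found in 8 of 74 windows (10.8%), against 575 of 32851 windows of all genes (1.75%). The ETS core was found in 18.9% of the members' windows against 8.86% of all, the YY1 core in 9.46% against 1.403%, and ACGTG in 25.7% against 19.6%. These matches describe letters and not binding.

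The tissue-restricted isoforms of complex IV were low, with few exceptions. Cox6a2, the isoform of heart and skeletal muscle, stood at 470 CPM in engineered MSC, 289 CPM in native MSC and 459 CPM in PBS in plasmacytoid dendritic cell-like cells, from 309, 102 and 346 UMIs. In the 8 compared classes Cox6a2 stayed at or under 2.06 CPM, while its ubiquitous partner Cox6a1 ran from 85.9 to 250.8 CPM. Ndufa4l2, a hypoxia-induced paralog of Ndufa4, stood in stellate or fibroblast-like cells at 49.8 CPM in engineered MSC and 40.7 CPM in native MSC, against 6.25 CPM in PBS, from 69, 63 and 11 UMIs. The counting intervals of the 2 MSC groups overlapped and both lay above that of PBS, with log2 ratios of 2.99 and 2.70, or 1.22 and 1.75 when each cell counted alike. Elsewhere Ndufa4l2 was highest in hepatocyte-like cells, at 4.11, 4.39 and 1.38 CPM. It had no UMI in dendritic cell 2-like cells, which allows up to 1.71, 1.90 and 0.841 CPM. Cox4i2, another hypoxia-induced subunit, stood at 18.8, 10.3 and 5.68 CPM in stellate or fibroblast-like cells, from 26, 16 and 10 UMIs, against 617, 701 and 523 CPM of its partner Cox4i1. Cox6b2, known from testis, stood there at 20.2, 15.5 and 5.11 CPM, and its partner Cox6b1 at 168, 177 and 181 CPM.

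The summed cycling markers of stellate or fibroblast-like cells were 333, 1316 and 99.4 CPM in engineered MSC, native MSC and PBS, and their part in these isoform levels was not tested. Cox7a1, the muscle partner of Cox7a2, stayed at or under 1.52 CPM in the 8 classes. The testis genes Cox7b2 and Cox8c and the muscle gene Cox8b had 2, 0 and 3 UMIs in all kept cells, and a count of 0 allows up to 0.0594, 0.0435 and 0.0416 CPM of Cox8c in engineered MSC, native MSC and PBS. Their partners Cox7b and Cox8a were present in every class, at 44.9 to 769 CPM and 193 to 925 CPM. Atp5if1, which blocks the reverse reaction of ATP synthase, stood at 144, 172 and 131 CPM in sinusoidal endothelium-like cells and 48.2, 73.0 and 53.7 CPM in B cell-like cells. Ndufab1, the mitochondrial acyl carrier protein, stood at 90.7, 116 and 148 CPM in sinusoidal endothelium-like cells and 717, 657 and 722 CPM in hepatocyte-like cells.

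**Figure D5:**
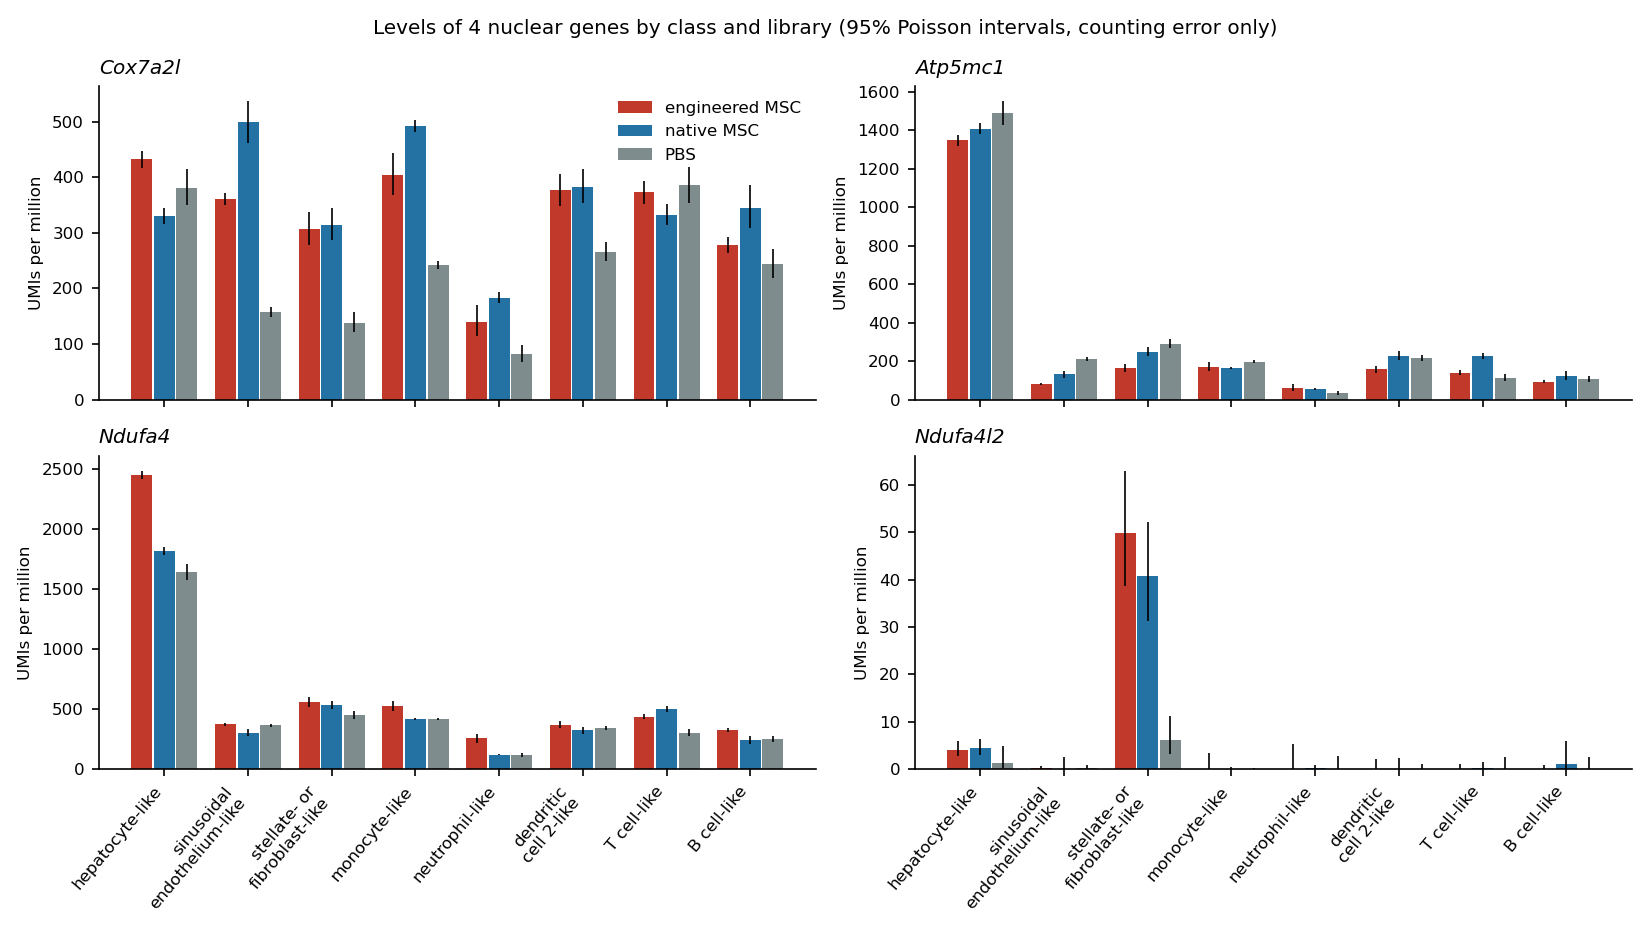
CPM of Cox7a2l, Atp5mc1, Ndufa4 and Ndufa4l2 in 8 classes and 3 libraries, with 95% Poisson intervals and a separate axis for each gene. PBS is the lowest bar of Cox7a2l in 6 of 8 classes, and Ndufa4l2 stands at 49.8, 40.7 and 6.25 CPM in stellate or fibroblast-like cells and near 0 elsewhere.

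Other genes of mitochondrial metabolism were followed with 15 lists. Among the 78 mitochondrial ribosomal protein genes, in T cell-like cells of native MSC 41 of 78 were past 1.5-fold higher, where 18.4% of all genes were, with a median log2 ratio of 0.62. In sinusoidal endothelium-like cells of engineered MSC 33 of 78 were lower, where 19.2% of all genes were, with a median of -0.51. In T cell-like cells of native MSC the 3 genes Cycs, Cyc1 and Hccs had a median of 1.10. The 14 complex I assembly factors had 0.60 there with 7 higher, and glycolysis 0.63 with 9 of 16 higher, again beside 18.4% of all genes. The complex II list, 8 nuclear genes for its subunits and their assembly factors, had a median of 0.15 there. Of that list 2 were higher and 2 lower, where 18.4% and 22.9% of all genes were. In sinusoidal endothelium-like cells of engineered MSC glycolysis had a median of -1.33 with 14 of 16 genes lower, the citric acid cycle -0.48 with 5 of 13 lower, and cytosolic ribosomal proteins -0.49 with 36 of 86 lower, again beside 19.2% of all genes. Assembly factors of complexes III to V ranged over medians of -0.14 to 0.07 across the 8 classes in engineered MSC and -0.18 to 0.32 in native MSC. Genes that copy, transcribe and process the mitochondrial genome ranged over -0.37 to 0.09 in engineered MSC and -0.37 to 0.11 in native MSC. The 12 biogenesis regulators, among them Ppargc1a and Nrf1, ranged over -0.31 to 0.28 in engineered MSC and -0.45 to -0.15 in native MSC.

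Lists chosen to follow handling and RNA of other cell types differed between libraries too. Red-cell RNA in T cell-like cells took 0.0169% of UMIs in engineered MSC and 1.09% in native MSC, against 0.000688% in PBS. Neutrophil RNA in hepatocyte-like cells had a median log2 ratio of 1.11 in engineered MSC and 4.47 in native MSC. Immediate-early and heat-shock genes, known to be induced by dissociation, had medians of -1.07 in hepatocyte-like and -0.92 in T cell-like cells of engineered MSC, and 0.73 in sinusoidal endothelium-like cells of native MSC. RNA retained in the nucleus took 0.0451%, 0.0316% and 0.0394% of UMIs in hepatocyte-like cells and 0.538% to 1.66% in the other 7 classes. The part of these in the values of the 99 genes was not tested.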

How the data were processed

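Single cells of 3 mouse livers were measured, 1 library a group. Per the labels, the kit was 10x 3' v3.1, used after enzymatic dissociation and red-cell lysis. Reads were processed with Cell Ranger 7.1.0 and GRCm39, per the submitters' processing notes. The authors deposited raw UMI counts per gene and barcode. Barcodes with at least 200 genes, 500 UMIs and at most 20% mitochondrial UMIs were kept here, which left out 296, 1135 and 70 barcodes of engineered MSC, native MSC and PBS for few genes. Scrublet scores took 973, 1054 and 923 doublets at 0.8% per 1000 barcodes. scanpy 1.11.5 and leidenalg 0.10.2 clustered 2000 variable genes without the 99 members or other mitochondrial genes (30 components, 15 neighbours, resolution 1). Clusters were named from 25 marker lists. Summed counts per class gave shares and CPM with exact Poisson intervals, and conditional binomial intervals for ratios. A 1.5-fold call needed 20 UMIs in the pair. Named nuclear genes are variant isoforms with their partners, and in each class the 3 highest and 3 lowest ratios against PBS with at least 50 UMIs. Members, lists and classes were chosen with earlier results of these data known. The intervals and calls were checked on Poisson counts simulated for sinusoidal endothelium-like cells of engineered MSC and PBS. These counts follow the model behind the intervals and hold no spread between mice or cells, so the check covers the calculation only. Alternatives changed filters, clustering, weighting and fold.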

Additional observations from a re-analysis of the deposited data

Results flagged for a closer look

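Each comparison below rests on 1 library a group, so every cell count of a class comes from 1 mouse, and the differences between classes were not tested. They stand out because the same comparison gave opposite signs in 2 classes, with counting intervals that lie apart. The mitochondrial set in native MSC against PBS had a log2 ratio of 0.60 (0.6005) in hepatocyte-like and -0.22 (-0.2155) in stellate or fibroblast-like cells. The hepatocyte-like ratio was -0.8547 with each cell counted alike and -0.9994 with a 10% mitochondrial limit, so it did not keep its sign. The nuclear set in engineered MSC against PBS was 0.43 (0.4326) in neutrophil-like and -0.24 (-0.2388) in sinusoidal endothelium-like cells. In native MSC against PBS the nuclear set was 0.54 (0.5353) in T cell-like and -0.03 (-0.02606) in sinusoidal endothelium-like cells. Within cluster 9, the endothelium-like cluster held by all 3 libraries, that last ratio was 0.0096 (interval -0.017 to 0.036), so the opposite sign was not found there. In engineered against native MSC the nuclear set was 0.20 (0.1979) in hepatocyte-like and -0.27 (-0.2677) in T cell-like cells. Within the T cell-like cluster held by all 3 libraries the T cell-like ratio was 0.09 in place of -0.27.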

How the results depend on the processing

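No paired analysis was possible because each group has 1 library. Over all alternatives 539 of 564 class values kept their sign and 25 turned, and 951 of 964 single-gene values kept it and 13 turned. These totals include values that an alternative could not change, so they overstate how far the signs were tested. Leaving the platelet marker list out of the naming moved none of its 48 class values and 81 single-gene values. Leaving out the monocyte-like cluster with muscle genes could change monocyte-like cells only. Dendritic cell 2-like and stellate or fibroblast-like cells lay in 1 cluster each, so the shared-cluster alternative repeated their main values. Among set values past 1.5-fold, those that turned were the mitochondrial set of hepatocyte-like cells. In native MSC against PBS it was -0.8547 with each cell counted alike and -0.9994 with a 10% mitochondrial limit, in place of 0.6005. In engineered against native MSC it was -1.28 in place of 1.222 among barcodes with at least 1%. Smaller values turned too. In the shared cluster the nuclear set of T cell-like cells was 0.09 in place of -0.27 in engineered against native MSC. That of sinusoidal endothelium-like cells was 0.0096 in place of -0.026 in native MSC against PBS. Medians over classes follow as mitochondrial engineered MSC to PBS, engineered to native MSC and native MSC to PBS, then nuclear in the same order, where they moved. Barcodes with at least 1%: 0.1307, 0.2648, -0.0476; 0.1838, -0.1249, 0.1733. Only the 1 shared cluster, 5 classes: 0.2271, 0.3858, -0.09926; engineered to native nuclear -0.1425. Resolution 2, 6 classes: 0.4437, 0.4299, -0.04882; native to PBS nuclear 0.2188. At least 500 genes, 7 classes: 0.465, 0.5951, 0.09343; engineered to native nuclear -0.04102. Each cell alike: 0.5649, 0.6576, -0.1247; nuclear to PBS 0.01318 and 0.06481. A 10% limit: engineered to native 0.4296, native to PBS -0.07338; nuclear engineered to PBS 0.05887. No mitochondrial limit: 0.5235, 0.5127; nuclear engineered to PBS 0.04722. Doublets kept: engineered to native 0.4483; nuclear native to PBS 0.1423. Members allowed in clustering: native to PBS -0.02156. Mitochondrial genes out of the total: engineered to native 0.4885. Cells low in hepatocyte RNA, 2 classes: 0.4597, 0.4435; nuclear -0.2062, -0.1706, -0.03559. Counts of members past 1.5-fold over the 8 classes were 87 higher and 18 lower in engineered MSC and 74 and 41 in native MSC, of 717 and 718 tested members over the classes; of all genes 16.3% were higher and 18.1% lower in engineered MSC, and 14.2% and 18.9% in native MSC. They moved to 6 lower and 19 lower at resolution 2, to 13 higher in engineered MSC and 5 higher and 25 lower in native MSC among cells low in hepatocyte RNA, to 29 lower in engineered MSC with each cell alike, to 33 lower there with no minimum count, to 118 higher and 71 lower in native MSC among barcodes with at least 1%, and at 2-fold to 45 and 6 in engineered MSC and 16 and 10 in native MSC. Fewer classes were compared where a number of classes is given. In the other moves the cause was not tested. Depth limits low members: those under 20 UMIs in a pair gave no call.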
